A study of Homo sapiens with 12 samples.

Results

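The genes of the proteasome were taken as the protein-coding genes whose symbol is PSMA, PSMB, PSMC, PSMD, PSME or PSMG followed only by digits, which gave 47 of the 20033 protein-coding genes of GENCODE release 44 on hg38. For each gene, the regions of H2A.Z and of acetylated H2A.Z (H2A.Zac) that overlapped the window of 1 kb to each side of its transcription start site (TSS) were collected, with the TSS set at the 5′ end of the gene record. The regions came from ChIP-seq in K562, an established human leukemia cell line. In every sample the endogenous EP400, the ATPase subunit of the TIP60 acetyltransferase complex, carried a dTAG degradation tag and had been degraded with 500 nM dTAGV-1 for 24 h. The control line was rescued with WT EP400 expressed from the AAVS1 safe harbor, and the other line with ΔTRRAP EP400, which lacks the part of EP400 that binds the TRRAP subunit. Each line had 2 biological replicates of H2A.Z, of H2A.Zac and of input, 12 libraries in all. Each line was 1 clone, so the EP400 form and the clone cannot be told apart. In such bulk ChIP-seq, fewer cells or alleles with a mark and less of the mark in each cannot be told apart.

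The 6 deposited lists hold regions that were lost (higher in WT), gained (higher in ΔTRRAP) or unchanged, for each mark. Each region has a single log10 likelihood ratio from the merged replicates, which is at least 3 in the changed lists. The ratio measures the evidence for a difference, and it is not a fold change. The lists hold no value per replicate and no depth. No test between the lines could therefore be made, and the members are described by counts beside the same counts over all protein-coding genes. The Wilson 95% intervals given with some shares cover the number of genes counted, not the spread between replicates, and they treat the genes as separate, which neighbors with a shared region are not.

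The proteasome is the protease that degrades ubiquitin-tagged proteins in the cytosol and nucleus. Its core particle is a barrel of outer α rings (PSMA genes) and inner β rings (PSMB genes), and the β rings carry the catalytic sites. The regulatory particle caps the barrel, with a base that holds a ring of ATPases (PSMC genes) and a lid and ubiquitin receptors (PSMD genes). Alternative activators (PSME genes) can take the place of the cap, and dedicated chaperones (PSMG genes and some PSMD genes) assemble the parts. Most subunits are needed in every cell, and their genes are known to be induced together by the factor NRF1 (NFE2L1) when proteasome activity is short. H2A.Z is a histone variant found on the nucleosomes that flank active TSSs. The TIP60 complex exchanges it into chromatin and acetylates it.

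The stretches just upstream of 5 TSSs are shown as examples of the different classes found at proteasome genes. PSMD2 and PSMG1 gained both marks. PSMB3 gained H2A.Zac after its TSS over unchanged H2A.Z. PSMC3 lost H2A.Zac before its TSS and gained it after. PSMD12 kept both marks unchanged. Each sequence runs 5′ to 3′ on the sense strand, from 250 bases before the RefSeq start to the last base before the GENCODE TSS (RefSeq, GRCh38.p14). Capitals mark letters searched for in the promoters, namely TGACNNNGC (the core of the antioxidant response element, the kind of site bound by NRF1), CCAAT (NF-Y), CCGGAA (the ETS core) and CACGTG (E-box), read on either strand.
PSMD2, chr3:184298991-184299197, plus strand: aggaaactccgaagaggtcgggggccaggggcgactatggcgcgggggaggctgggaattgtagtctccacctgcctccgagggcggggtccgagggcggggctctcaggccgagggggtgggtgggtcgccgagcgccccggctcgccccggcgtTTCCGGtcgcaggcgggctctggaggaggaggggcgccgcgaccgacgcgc
PSMG1, chr21:39183489-39183701, minus strand: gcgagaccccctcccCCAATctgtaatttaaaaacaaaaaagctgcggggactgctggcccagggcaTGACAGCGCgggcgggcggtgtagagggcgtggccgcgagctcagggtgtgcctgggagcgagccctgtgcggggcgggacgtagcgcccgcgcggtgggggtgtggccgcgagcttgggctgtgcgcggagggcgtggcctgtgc
PSMB3, chr17:38752491-38752740, plus strand: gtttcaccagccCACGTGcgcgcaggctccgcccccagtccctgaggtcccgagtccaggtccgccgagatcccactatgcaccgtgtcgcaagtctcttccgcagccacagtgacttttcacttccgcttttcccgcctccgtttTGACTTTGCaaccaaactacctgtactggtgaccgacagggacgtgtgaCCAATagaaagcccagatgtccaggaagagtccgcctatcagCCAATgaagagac
PSMC3, chr11:47426474-47426689, minus strand: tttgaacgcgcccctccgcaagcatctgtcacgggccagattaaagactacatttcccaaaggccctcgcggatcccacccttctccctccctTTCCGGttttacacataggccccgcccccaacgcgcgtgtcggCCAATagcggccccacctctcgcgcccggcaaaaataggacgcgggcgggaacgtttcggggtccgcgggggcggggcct
PSMD12, chr17:67366606-67366827, minus strand: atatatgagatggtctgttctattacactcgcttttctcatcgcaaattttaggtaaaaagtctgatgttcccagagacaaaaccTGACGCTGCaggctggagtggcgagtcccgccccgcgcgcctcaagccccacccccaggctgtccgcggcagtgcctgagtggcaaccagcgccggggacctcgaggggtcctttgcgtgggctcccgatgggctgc

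Proteasome genes carried H2A.Z and H2A.Zac more often than protein-coding genes in general, and most of them gained H2A.Zac in ΔTRRAP. A region of H2A.Z lay within 1 kb of the TSS in 42 of 47 genes (89.4%), against 60.1% of all protein-coding genes. A region of H2A.Zac was found in the same number (89.4%), against 62.3%. A gained H2A.Zac region was present in 35 of 47 genes (74.5%, interval 60.5 to 84.7%), against a background of 34.7%. The share was also higher among occupied genes alone. Of the 42 genes with any H2A.Zac, 35 had a gained region (83.3%, interval 69.4 to 91.7%), whereas 55.7% of the 12472 protein-coding genes with H2A.Zac did. At a ratio of at least 10, gained H2A.Zac was left at 2 of the 47 genes (4.26%), below the background of 5.13%. A gained region over the TSS base itself was found in 14 of the 47 genes (29.8%, background 15.4%).

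The other classes were close to the background. A lost H2A.Zac region was found in 11 genes (23.4%, background 16.9%), which is 26.2% of those with H2A.Zac against 27.1% of all genes with it. H2A.Z itself was gained in 7 genes (14.9%, background 13.0%) and lost in 4 (8.51%, background 6.63%). Over the 42 genes with H2A.Z, the gained share was 16.7% against 21.6%, and the lost share was 9.52% against 11.0%. At a ratio of at least 5, gained H2A.Z fell to 2 of the 47 genes (4.26%, background 6.90%). Lost H2A.Z then fell to 0 (background 4.20%), so both shares over all genes moved from above to below the background. The map of the regions around each TSS shows the contrast between a largely unchanged H2A.Z panel and an H2A.Zac panel in which gained regions are frequent.

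**Figure D1:**
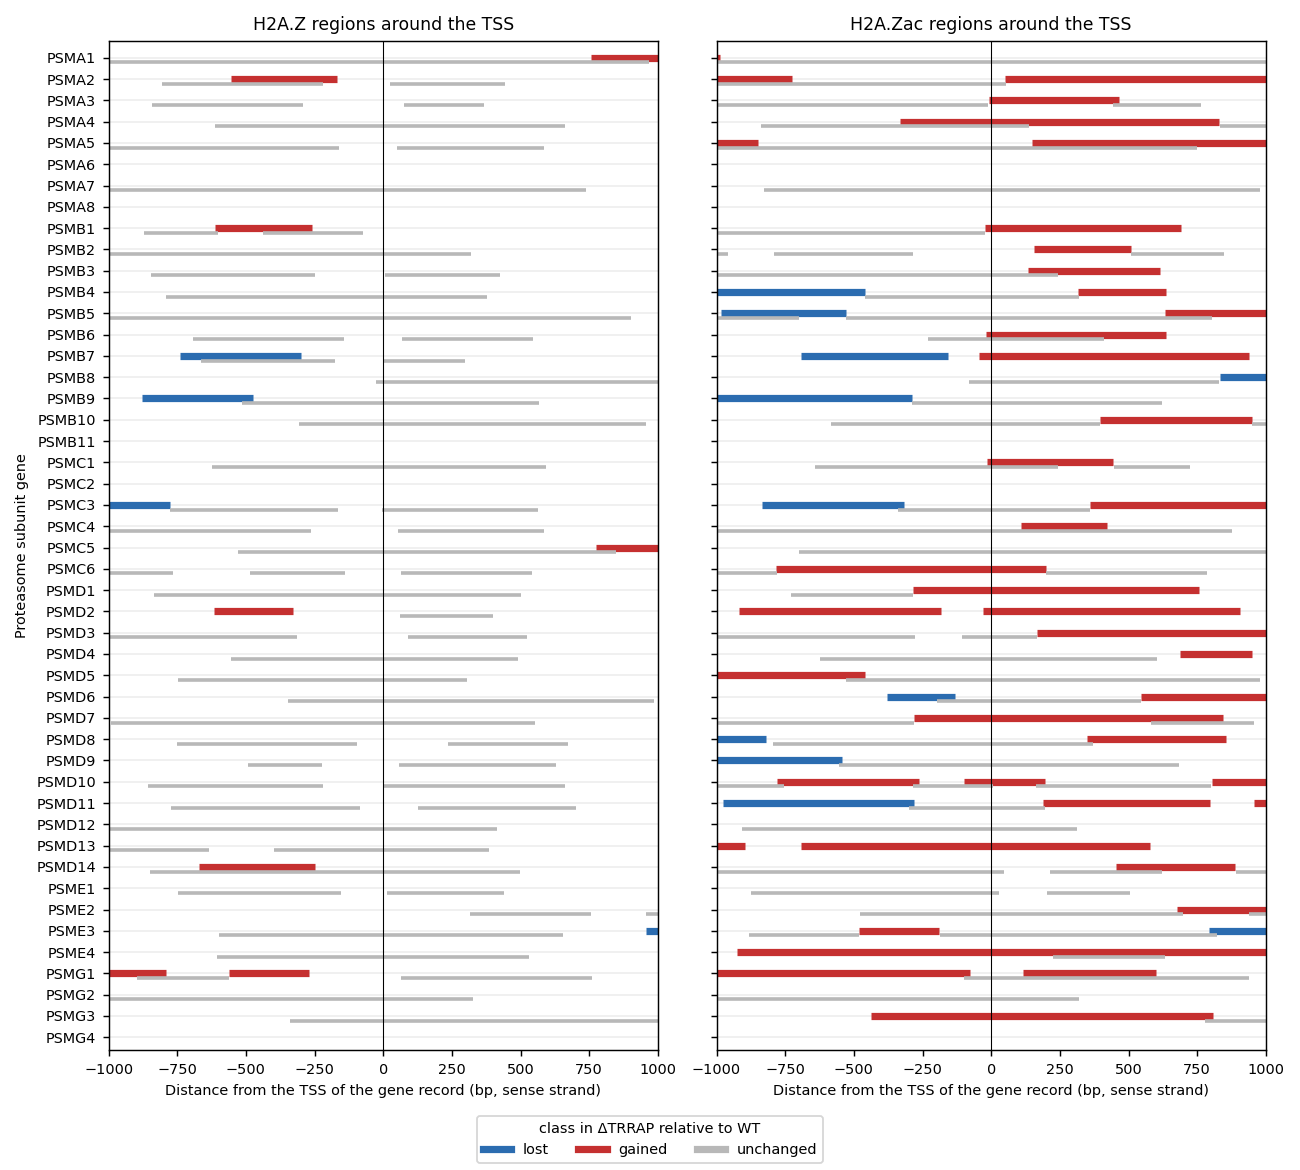
Each row is a proteasome gene and each bar a region, drawn by its distance from the TSS (bp, sense strand, 1 kb to each side) for H2A.Z on the left and H2A.Zac on the right, with lost regions in blue, gained in red and unchanged in grey. Of the 47 genes, 35 have a gained H2A.Zac region and 7 a gained H2A.Z region; no lost region covers a TSS.

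The combination that occurred most was H2A.Zac gained while H2A.Z near the same TSS was unchanged. It was found in 26 genes (55.3%), against 21.1% of all protein-coding genes. The share was 33.7% of cytosolic and 47.4% of mitochondrial ribosomal protein genes, and 58.3% of 24 genes that work with the proteasome. These shares are over all genes, with or without a region of the marks, and were not computed over occupied genes alone. Both marks were gained within the window in 6 proteasome genes (12.8%, background 10.3%), which were PSMA1, PSMA2, PSMB1, PSMD2, PSMD14 and PSMG1. The gained regions of both marks shared bases only at PSMD2 and PSMG1. A lost region of both marks was present in 4 genes (8.51%, background 5.34%). Of these PSMB9 had only lost H2A.Zac, while PSMB7, PSMC3 and PSME3 also had a gained H2A.Zac region. PSMC5 was alone in gaining H2A.Z with H2A.Zac unchanged. PSMA7, PSMD12 and PSME1 were unchanged in both marks, and 5 genes (PSMA6, PSMA8, PSMB11, PSMC2 and PSMG4) had no region in the window.

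Counted by region, 43 gained H2A.Zac regions lay at the proteasome genes. At least 25% of the length was covered by unchanged H2A.Z in 35 of the 43 (81.4%), by gained H2A.Z in 2 (4.65%) and by lost H2A.Z in 0, and 7 lay on no H2A.Z region. Over all protein-coding genes, 73.5% of gained H2A.Zac regions lay on unchanged and 19.5% on gained H2A.Z. Of the 10 lost H2A.Zac regions at proteasome genes, 7 lay on unchanged H2A.Z (background 60.5%), 3 on lost H2A.Z (background 29.2%) and 2 on no H2A.Z region (background 24.3%), and a region could lie on more than 1 class.

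The gained H2A.Zac lay mostly downstream of the TSS. Of the 43 gained regions 14 covered the TSS, 19 lay wholly after it and 10 wholly before it. In 27 of the 35 genes (77.1%, interval 61.0 to 87.9%) more gained bases lay after than before the TSS, against 64.5% of protein-coding genes with a gained region. The exceptions were PSMA1, PSMC6, PSMD5, PSMD10, PSMD13, PSME3, PSMG1 and PSMG2. Coverage by gained H2A.Zac was highest at 375 and 425 bp after the TSS, where 23 of the 42 genes with H2A.Zac were covered (54.8%). The background peaked at 325 bp after the TSS, with 31.7% covered. At 575 bp before the TSS, 16.7% of the proteasome genes and 17.5% of the background were covered.

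Lost H2A.Zac lay on the other side. Of the 10 lost regions, 8 were wholly before the TSS, 1 (at PSME3) was wholly after it, and 1 lay before the TSS of PSMB9 and after that of PSMB8. More lost bases lay before than after the TSS in 9 of 11 genes (81.8%), against a background of 62.9%. Coverage reached its maximum of 16.7% at 575 bp and at 3 other positions farther before the TSS, and the background had its maximum of 10.8% at 575 bp before the TSS. No proteasome gene was covered by lost H2A.Zac at 325 bp after the TSS, where 7.42% of the background was. Of the 8 gained H2A.Z regions, 6 lay wholly before the TSS, a share that was not computed over all genes. Gained H2A.Z covered 11.9% of the 42 genes with H2A.Z at 375 bp before the TSS (background 6.72%). At 325 bp after the TSS it covered 0, where the background had its maximum (8.13%).

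**Figure D2:**
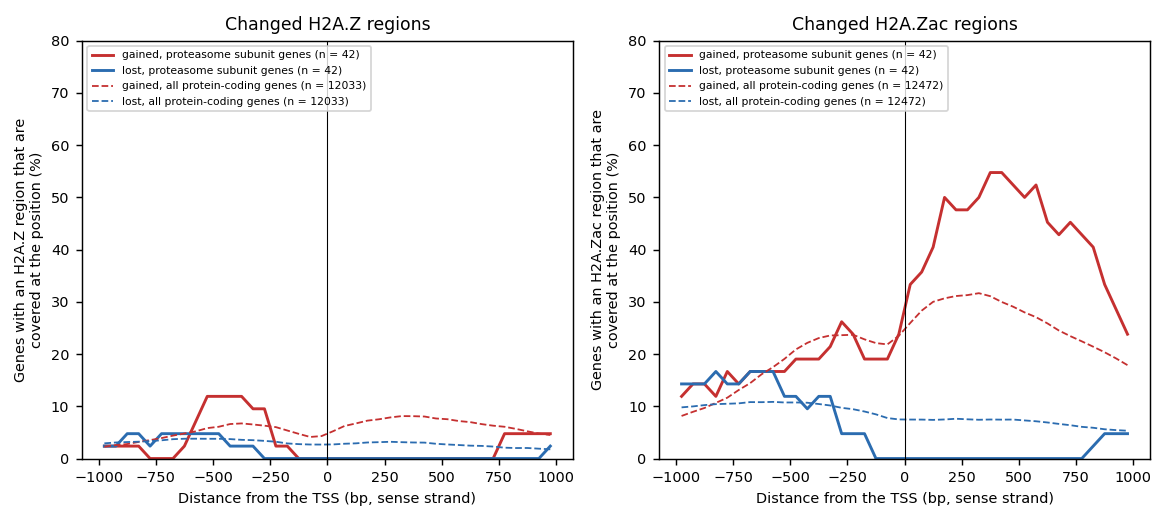
Share of genes (%) covered by a gained (red) or lost (blue) region at each distance from the TSS (bp), for H2A.Z and H2A.Zac, over genes with a region of that mark; solid lines are proteasome genes (n = 42 for each mark) and dashed lines all protein-coding genes. The solid red H2A.Zac line reaches 54.8% at 375 bp after the TSS, above the dashed maximum of 31.7%.

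The listed H2A.Z regions of these genes often left out the TSS itself, while listed H2A.Zac regions mostly covered it. Over the TSS base, 24 of the 47 genes had an H2A.Z region (51.1%, background 40.1%). An H2A.Zac region lay there in 41 (87.2%, background 54.6%). In 16 of the 42 genes with H2A.Z (38.1%) regions lay on both sides of the TSS and none over it, against 19.6% of all protein-coding genes with H2A.Z, 24.3% of cytosolic and 23.7% of mitochondrial ribosomal protein genes. The 16 were PSMA2, PSMA3, PSMA5, PSMB3, PSMB6, PSMB7, PSMC4, PSMC6, PSMD2, PSMD3, PSMD8, PSMD9, PSMD10, PSMD11, PSME1 and PSMG1. At each of them a listed H2A.Zac region lay over the TSS, so the gap is in the H2A.Z lists alone. At PSMB3, unchanged H2A.Z ran from 846 to 249 bp before the TSS and again from 7 to 425 bp after it. Most of the sequence printed for PSMB3 lay between these H2A.Z regions. All of that sequence was covered by an unchanged H2A.Zac region, which ran from 2770 bp before to 242 bp after the TSS.

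In the core particle, 13 of 19 genes had a gained and 5 a lost H2A.Zac region. The α ring, which gates the entry to the barrel, had gained regions in 5 of its 7 constitutive genes and no lost one. The highest ratios were 7.75 at PSMA4, where the region covered the TSS, 7.11 at PSMA2 and 7.01 at PSMA3. PSMA5 had gained regions on each side of the TSS (ratios 5.47 after and 4.38 before). PSMA2 also had a gained H2A.Z region from 556 to 167 bp before the TSS (ratio 4.22). PSMA1 was counted through 12 bases of a gained H2A.Zac region at the window edge (ratio 4.96) and had gained H2A.Z from 757 bp after the TSS (4.06). PSMA7 had unchanged regions of both marks over its TSS (ratios 0.86 for H2A.Z and 0.53 for H2A.Zac).

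All 7 constitutive β ring genes gained H2A.Zac, and 3 of them lost it elsewhere in the window. PSMB1 had the highest gained ratio of the core particle (10.4), in a region of 715 bp at chr6:170552616-170553330 that ran from 23 bp before to 691 bp after the TSS and touched exon 1 (exons are numbered in the canonical transcript). Its H2A.Z gained between 612 and 258 bp before the TSS (ratio 5.18). PSMB3 followed, with a ratio of 9.60 in a region from 135 to 613 bp after the TSS over exon 2. At PSMB7, which encodes the subunit with trypsin-like activity, gained H2A.Zac covered the TSS and exons 1 to 2 (984 bp, ratio 8.35). Lost H2A.Zac (ratio 4.98) and lost H2A.Z (ratio 4.81) lay upstream of PSMB7, from 693 to 158 bp and from 741 to 299 bp before the TSS. PSMB5, the subunit with chymotrypsin-like activity and the main target of bortezomib, had a lost region of ratio 4.56 upstream and a gained region of 5.32 from 631 bp after the TSS. At PSMB4 the lost upstream region (ratio 6.67, 1108 bp) exceeded the gained downstream region (ratio 4.82, 319 bp). PSMB2 (7.42) and PSMB6 (4.46) had a gained region and no lost one.

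Of the 3 inducible β subunits, 2 shared a lost H2A.Zac region and 1 had a gained region. PSMB8 and PSMB9, which replace PSMB5 and PSMB6 in the immunoproteasome, lie on opposite strands in the MHC class II region, with TSSs 543 bp apart in the annotation. They shared 1 lost H2A.Zac region of 873 bp (chr6:32842975-32843847, ratio 10.7), the highest lost ratio of the family, which touched exon 2 of PSMB8 and lay upstream of PSMB9. A lost H2A.Z region of ratio 3.21 lay inside it, just beyond the window of PSMB8. Neither gene had a gained region. The canonical TSS of PSMB9 is 10.1 kb away, and there both marks were unchanged (ratios 0.60 for H2A.Z and 0.88 for H2A.Zac). PSMB10, the third inducible subunit, had a gained region from 395 to 949 bp after the TSS, over exons 2 to 4 (ratio 6.13), with H2A.Z unchanged, as at the constitutive PSMB2, PSMB3 and PSMB6. The tissue-restricted PSMA8 (testis) and PSMB11 (cortical thymus) had no region of either mark.

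In the regulatory particle, 14 of 17 genes gained H2A.Zac and 4 lost it. Of the 6 base ATPases, which unfold substrates, PSMC1 (ratio 4.83), PSMC3 (5.33), PSMC4 (4.60) and PSMC6 (5.92) had a gained region, each below the family's median of 6.36. PSMC3 had lost H2A.Zac from 834 to 317 bp before the TSS (ratio 8.19) and lost H2A.Z farther upstream, from 1864 to 776 bp (ratio 4.91), and its gained H2A.Zac began 361 bp after the TSS and touched exon 2. The sequence printed for PSMC3 fell between these regions, in H2A.Zac that was unchanged (ratio 1.56). PSMC5 had gained H2A.Z from 774 to 1037 bp after its TSS (ratio 4.20), inside a wider unchanged H2A.Zac region.

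The other base subunits, the scaffolds PSMD1 and PSMD2 and the ubiquitin receptor PSMD4, all gained H2A.Zac and lost none. PSMD2 had the highest gained ratio of all proteasome genes, 11.5, in a region of 936 bp (chr3:184299169-184300104) from 29 bp before to 906 bp after the TSS, over exons 1 to 2. A second gained H2A.Zac region lay from 919 to 182 bp before the TSS (ratio 9.08), with gained H2A.Z inside it (ratio 4.47, from 618 to 327 bp before the TSS), and the printed PSMD2 stretch spans the gap between them. PSMD1 had a gained region over the TSS (ratio 5.76), and PSMD4 had a short gained region of 264 bp far downstream (ratio 5.71).

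In the lid, which holds the deubiquitinase PSMD14, 7 of 8 genes gained H2A.Zac. PSMD3 had the highest ratio (9.59), from 165 to 1032 bp after the TSS, touching exon 1. PSMD6, PSMD8 and PSMD11 had lost regions upstream (ratios 3.90, 7.30 and 6.01) and gained regions downstream (6.65, 6.28 and, of 2 regions, at most 8.58). PSMD13, whose TSS lies 35 bp from that of SIRT3 on the opposite strand, had gained regions of 7.90 over its TSS and 7.05 upstream. PSMD7 had a gained region over its TSS (4.99). PSMD14 combined gained H2A.Zac after the TSS (ratio 4.62) with gained H2A.Z before it (3.62), and that H2A.Z region lay wholly within an unchanged H2A.Z region. PSMD12 was the exception, with unchanged regions of both marks over its TSS (ratios 0.31 for H2A.Z and 1.32 for H2A.Zac).

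Among the activators, PSME1 and PSME2 encode the subunits of the interferon-inducible PA28αβ cap, and they lie on the same chromosome arm. PSME2 had a gained H2A.Zac region of ratio 9.42 from 678 bp after its TSS, over exon 1 of its canonical transcript, while both marks were unchanged at PSME1 (highest ratio 1.89). PSME4, which encodes PA200, had the widest gained region of the family (3788 bp, ratio 8.14), which covered its TSS. PSME3, the nuclear PA28γ, was the reverse of the usual order, with gained H2A.Zac before the TSS (ratio 6.36) and lost H2A.Zac (6.48) and lost H2A.Z (4.89) after it.

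Of the 7 assembly chaperones, 5 gained H2A.Zac and 1 lost it. PSMG1, an early chaperone of the α ring, had the highest gained H2A.Z ratio of the family (7.24, from 561 to 270 bp before the TSS), a second gained H2A.Z region (3.60), and gained H2A.Zac from 1178 to 76 bp before the TSS (9.30) and again after it (3.55). Its printed stretch overlaps the upstream gained H2A.Zac region. PSMG3 had a gained region over the TSS (7.50). PSMG2 was counted through 4 bases of a gained region at the window edge (5.43). Among the chaperones of the base, PSMD10 had 3 gained regions (at most 6.74) and PSMD5 had 1 upstream (5.31). PSMD9 was the only chaperone with lost H2A.Zac, from 1116 to 542 bp before the TSS (ratio 8.62), and had no gained region.

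The ratios of the proteasome genes were moderate. The highest gained H2A.Zac ratio per gene had a median of 6.36 (4.46 to 11.5, n = 35), beside 6.40 over the 6946 protein-coding genes with a gained region. A ratio of at least 10 was reached at 2 of the 35 genes (5.71%), PSMD2 and PSMB1, against 14.8%. For lost H2A.Zac the median was 6.67 (3.90 to 10.7, n = 11) beside 7.64. Medians were 4.22 for gained H2A.Z (n = 7) beside 5.12, and 4.85 for lost H2A.Z (n = 4) beside 5.55. The family stood above the background in how many genes had gained H2A.Zac and not in the ratio of the gained regions.

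**Figure D3:**
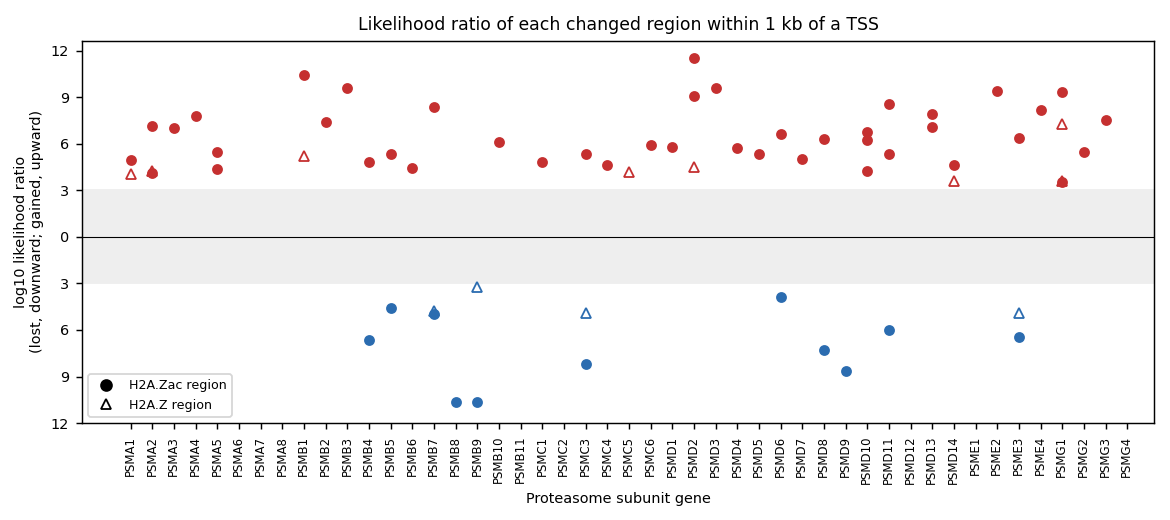
Log10 likelihood ratio of every lost (blue, downward) and gained (red, upward) region within 1 kb of a proteasome TSS, with filled circles for H2A.Zac and open triangles for H2A.Z; the grey band, up to a ratio of 3, holds no changed region. PSMD2 (11.5) and PSMB1 (10.4) are highest among gained regions, and the region shared by PSMB8 and PSMB9 (10.7) among lost ones.

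Gained and lost H2A.Zac near the same TSS were found in 8 genes (PSMB4, PSMB5, PSMB7, PSMC3, PSMD6, PSMD8, PSMD11 and PSME3). These are 21.1% of the 38 proteasome genes with changed H2A.Zac (interval 11.1 to 36.3%), beside 8.99% of protein-coding genes with changed H2A.Zac. The share was 7.25% of cytosolic and 4.92% of mitochondrial ribosomal protein genes, and 5.56% (1 of 18) of genes that work with the proteasome. A ratio below 5 was found for the gained region of PSMB4 (4.82) and the lost regions of PSMB5 (4.56), PSMB7 (4.98) and PSMD6 (3.90). This share was not recomputed at other cutoffs. In 7 of the 8, most lost bases lay before and most gained bases after the TSS. That order was also usual in the background (78.4% of 851 genes).

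A high share of genes with gained H2A.Zac was also found in other housekeeping families. Of genes with H2A.Zac, a gained region was found in 62 of 79 cytosolic ribosomal protein genes (78.5%) and 54 of 75 mitochondrial ribosomal protein genes (72.0%), with intervals that overlap that of the proteasome genes. Of genes with H2A.Z, gained H2A.Z was found in 7 of 42 proteasome genes (16.7%, interval 8.32 to 30.6%), 19 of 76 mitochondrial ribosomal protein genes (interval 16.6 to 35.8%) and 40.5% of cytosolic ribosomal protein genes (interval 30.1 to 51.9%), beside 21.6% in the background. The mitochondrial interval overlaps that of the proteasome genes widely, and the cytosolic one meets it only between 30.1 and 30.6%. The share of gained H2A.Zac regions that lay on gained H2A.Z was 4.65% at proteasome genes, 16.4% at mitochondrial and 36.8% at cytosolic ribosomal protein genes, beside 19.5% in the background. A lost region of both marks was found at 4 proteasome genes (8.51%, interval 3.36 to 19.9%, which holds the background of 5.34%) and at 0 of the 86 cytosolic and 0 of the 78 mitochondrial ribosomal protein genes. The 4 fell to 2 with 500 bp to each side and to 0 at a ratio of at least 5. These differences were not tested.

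**Figure D4:**
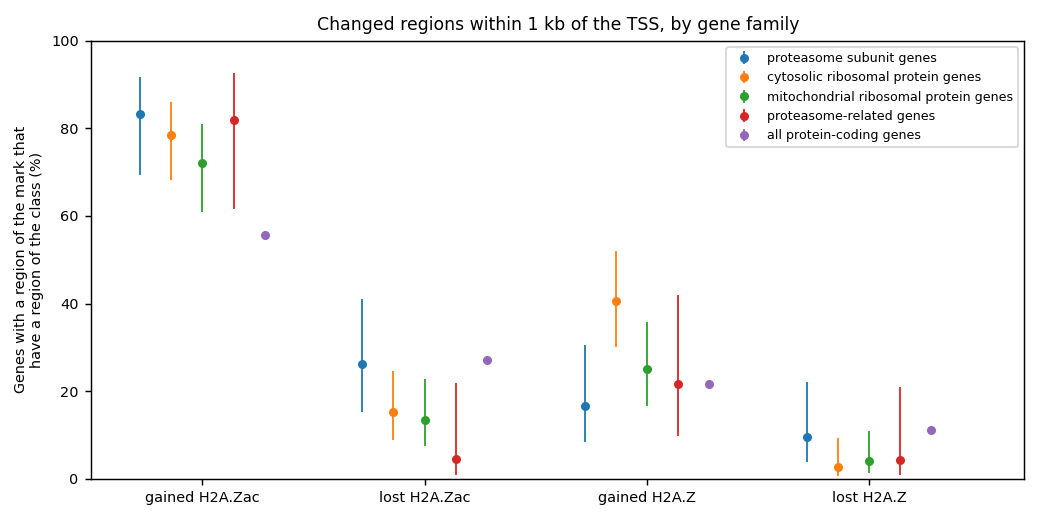
Share (%) of genes with a region of the mark that have a gained or lost region, for proteasome genes, cytosolic and mitochondrial ribosomal protein genes, proteasome-related genes and all protein-coding genes; points are shares and bars Wilson 95% intervals. Gained H2A.Zac is 83.3% in proteasome genes against 55.7% of all protein-coding genes, and gained H2A.Z is highest in cytosolic ribosomal protein genes (40.5%).

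For 7 genes the gene record starts more than 1 kb from the TSS of the canonical transcript (PSMA1, PSMA6, PSMB9, PSMC2, PSME3, PSMG2 and PSMG4, by 9.01 to 123 kb). At the canonical TSSs, a choice made after seeing the data, 45 of 47 genes had H2A.Zac and only PSMA8 and PSMB11 had neither mark. PSMC2 then had a gained H2A.Zac region over the TSS (ratio 4.59), and PSMA6 and PSMG4 had unchanged regions of both marks. PSMA1 had gained H2A.Zac over its canonical TSS (6.98) with H2A.Z unchanged, while PSMG2 gained both marks (4.81 for H2A.Z and 6.47 for H2A.Zac). PSME3 had another gained H2A.Zac region there, of ratio 3.62, and no lost one. In all, 36 genes had gained H2A.Zac (76.6%, background 36.6%), and its coverage was again at its maximum 375 bp after the TSS (57.8% of 45 genes, background maximum 33.6%).

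In 14 genes the window also held the TSS of another protein-coding gene, on the opposite strand in 11 of them, so that their regions cannot be assigned to the proteasome gene alone. Gained H2A.Zac was found in 9 of the 13 such genes with H2A.Zac (69.2%, background 68.0% of genes with a shared window). It was found in 26 of the 29 genes with a window of their own (89.7%, background 51.7%).

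The surroundings of the genes varied widely. Within 2.5 Mb to each side of the TSS, gained regions were a median of 53.2% of the changed H2A.Zac regions (5.56 to 77.2% over the 47 genes). The full lists held similar numbers of gained (24844) and lost (24482) H2A.Zac regions. PSMD2, with the highest gained ratio, had the highest share around it (77.2%). PSMA7, on chromosome 20, had the lowest (6 gained of 108 changed), and its own promoter was unchanged in both marks. Of the 3 genes with lost H2A.Zac alone, PSMD9 lay where 26 of 176 changed regions were gained (14.8%), and the neighbors PSMB8 and PSMB9 lay where the share was 58.4%. PSMC4 gained H2A.Zac where the share was 26.5%. The median share was 53.6% around the 27 genes with gained H2A.Zac alone. No median is given for lost H2A.Zac alone, because PSMB8 and PSMB9 share their surroundings and their lost region.

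Of the 47 genes, 41 had a promoter in the RefSeq table used (GRCh38.p14). The letters TGACNNNGC were found in the 250 bases before the RefSeq start of 10 of 41 genes (24.4%), against 11.6% of 15343 protein-coding promoters. They were found at PSMB3, PSMB9, PSMD3, PSMD5, PSMD9, PSMD12, PSME1, PSME2, PSME4 and PSMG1. This group includes genes with high gained ratios (PSMB3, PSMD3, PSME2 and PSMG1), PSMD9 with lost H2A.Zac and no gained region, and genes unchanged in both marks (PSMD12 and PSME1). For PSMB9 the promoter searched is that at the canonical TSS, where both marks were unchanged, 10.1 kb from the TSS of the gene record with the lost region. CCGGAA was found in 17 (41.5%, background 20.3%) and CCAAT in 17 (41.5%, background 34.9%). CACGTG was found in 3 (7.32%, background 7.91%), the palindrome of nuclear respiratory factor, a protein unrelated to NFE2L1, in 1 (2.44%, background 1.56%) and the YY1 motif in 0 (background 0.41%). Median GC content was 62.0% beside 63.2%, with 19 CpGs per 250 bases beside 18. Each match is a description of letters, not a bound site.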

How the data were processed

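ChIP-seq of H2A.Z, H2A.Zac and input was made in 2 replicates per line. The authors aligned reads to hg38 with Bowtie2 2.4.5, called peaks with MACS2 2.2.7.1, merged replicates, scaled them to the effective depth, and compared the lines with MACS2 bdgdiff. A region had to share 25% of its bases with peaks that passed an IDR threshold of 0.05. The authors deposited, as the score of a region, the log10 likelihood ratio between the lines. Depth is not in the lists.

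The 6 lists were read as deposited and were overlapped (1 base or more) with windows of 1 kb to each side of GENCODE release 44 TSSs, a later release than the authors used. The overlap code was tested on simulated data and against bedtools 2.31.1. Intervals came from scipy 1.17.1. Where a symbol had several RefSeq promoters, the one nearest to the canonical TSS was used. Motif letters were searched on both strands, and different motifs may overlap. The lists used here hold merged replicates without a value for each, so no test was run. The members and gene lists were chosen with earlier results of these data known. Genes named in full had the 5 highest ratios per mark and direction, regions in different directions, no region, a restricted or inducible role, or a place in 1-sided stretches of chromosomes 19 and 20. Genes from other lists are named only where both marks changed, or as exceptions chosen after their values were seen. Alternatives were other windows, cutoffs, overlaps, TSSs and gene subsets.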

Additional observations from a re-analysis of the deposited data

How the results depend on the processing

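The 9 counts of proteasome genes were recomputed under 10 alternatives, and 64 of the 90 values stayed within 1.5 times the reported count. Gained H2A.Zac held at 26 to 36 genes except at a ratio of at least 10 (2 genes) and over the TSS base (14). With 500 bp to each side, 2 genes had lost H2A.Z, 6 lost H2A.Zac and 2 both marks lost. At a ratio of at least 5, lost H2A.Z and both marks lost fell to 0 genes, and gained H2A.Z and both marks gained to 2. At a ratio of at least 10, both changed classes of H2A.Z, both marks gained and both marks lost had 0 genes, and lost H2A.Zac, gained H2A.Zac and gained H2A.Zac over unchanged H2A.Z alone had 2 each; over all protein-coding genes gained H2A.Zac then fell to 5.13%, beside 4.26% of the proteasome genes. With 25% of a region inside the window, lost H2A.Z and both marks lost were 2. Over the TSS base, 24 genes had H2A.Z, 14 had gained H2A.Zac and 7 gained it over unchanged H2A.Z alone, while gained H2A.Z, lost H2A.Z, lost H2A.Zac, both gained and both lost were 0. Without the 14 genes with another TSS in the window, gained H2A.Z was 4 and both marks gained 3 of 33 genes. The canonical TSS, chosen after seeing the data, any transcript TSS, a window of 2 kb and leaving out the stretches of chromosomes 19 and 20 moved no count by over 1.5 times. Fewer regions qualify under the stricter settings by construction. No paired analysis was possible because the lists hold merged replicates. For the same reason no replicate could be left out, the spread between replicates is unknown, and a class near the cutoff of 3 has no replicate check.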

Other observations

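Genes that work with the proteasome were described from a list of 24, of which 1 (RPS27A) is also a ribosomal protein gene. Of the 22 with H2A.Zac, 18 had a gained region (81.8%, against 55.7% of all protein-coding genes with H2A.Zac) and 1 a lost one (4.55%, against 27.1%). In 16 of the 18 (88.9%, background 64.5%) more gained bases lay after than before the TSS. Both marks were gained at 4 of the 24 genes (16.7%, background 10.3%). These were UCHL5, a deubiquitinase of the regulatory particle (ratios 6.39 for H2A.Z and 13.3 for H2A.Zac), TXNL1, a thioredoxin-like protein bound to the proteasome (4.79 and 6.83), PAAF1, which binds the base ATPases (4.30 and 4.37), and UBQLN2, a shuttle for ubiquitinated proteins (3.75 and 3.33). The genes that follow were chosen for mention after their values were seen. NGLY1, the glycanase that activates NRF1, had a gained H2A.Zac region of ratio 15.8, and NFE2L1, which encodes NRF1, had one of 6.94, while DDI2, the protease that cleaves NRF1, had no changed region. AKIRIN2, which carries proteasomes into the nucleus, had gained (11.5) and lost (4.07) H2A.Zac, and POMP, the maturation factor of the core particle, had gained H2A.Zac (9.80). ADRM1, a ubiquitin receptor of the base encoded on chromosome 20, was the only gene of the list with lost H2A.Z (4.25) and had no changed H2A.Zac. PSMF1, an inhibitor of the core particle also on chromosome 20, had no region of either mark in its window.

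Changed and unchanged regions of a mark overlapped at several proteasome genes. At least 50% of the length lay within an unchanged region of the same mark in 4 of 8 gained H2A.Z regions, against 30.1% of all gained H2A.Z regions at protein-coding TSSs. For gained H2A.Zac this was so in 7 of 43 (16.3%), against 16.8%. The gained H2A.Z region of PSMD14, the upstream gained H2A.Zac regions of PSMA2 and PSMA5 the gained H2A.Zac region of PSMC4 and the downstream gained H2A.Zac region of PSMG1 lay wholly within unchanged ones, so these loci hold regions of different classes on the same bases.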
